A study of Ictidomys tridecemlineatus with 10 samples.

Results

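The genes described here are the activity-regulated immediate early genes, 34 named genes that cells transcribe within minutes of a stimulus, together with early inducible regulators and effectors of the same response. Members were the rows of the deposited table whose symbol was on the list and whose mean over the 10 libraries was at least 0.5 CPM, reads scaled to a common library size, a rule that used no difference between states. Of the 34 symbols, 32 had a row, 29 reached that mean, and these 29 are set among 25964 genes in all. Jund and Klf2 were not analysed here. Fosb lay just inside the limit with a mean of 0.534 CPM and Egr3 just outside it with 0.466 CPM, and Dusp2 and Dusp5 were also outside.

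The tissue was the subfornical organ, dissected from the thirteen-lined ground squirrel, a rodent that hibernates. This organ lies on the brain midline where capillaries are leaky, and its neurons respond to circulating salt and angiotensin and promote drinking. Of the 10 libraries, 5 came from Active animals, which were outside hibernation, and 5 from animals in interbout arousal (IBA), the return to a warm body between bouts of torpor in the hibernation season. The labels name no genotype, treatment, age or sex, and the titles number the replicates 1 to 5 in each state. Per the labels' protocols, the brain was sliced on a vibratome and the organ was cut out by hand with needles.

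Immediate early genes need no new protein to switch on. Calcium entry and growth factor signals reach their promoters through MAP kinases, CREB and the serum response factor, and the first wave of products consists largely of transcription factors. FOS and JUN proteins pair as AP-1, EGR and NR4A proteins act as zinc-finger factors and ligand-independent nuclear receptors, and DUSP phosphatases switch MAP kinases off again. Arc, Bdnf and Vgf carry the response to synapses and secreted signals. In brain tissue Fos and its relatives are widely read as marks of recent neuronal firing, but glia, vessels and other stimulated cells induce most of them too.

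Recovered library totals were 20993093 to 35382203 reads, so 1 read was worth 0.0294 to 0.0441 CPM. Agtr1 and Etv1, both known from neurons of this organ, were present in every library at 13.6 to 69.5 and 87.8 to 158 CPM. One library stood apart: in Active replicate 4 the 8 choroid plexus markers with a row summed to 21764 CPM, against 953 to 3587 CPM in the other Active and 1068 to 5071 CPM in the IBA libraries. In these bulk samples fewer cells of a type and less RNA per cell cannot be told apart. CPM values were not divided by gene length, so levels are compared between libraries and not between genes.

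None of the immediate early genes passed the test between the states. Log2(CPM + 0.5) values were fitted with limma over the 15445 genes that averaged 1 CPM or more, with Benjamini-Hochberg adjustment, a threshold of 0.05 and differences given as IBA minus Active. Of the 29 members, 25 entered this fit, and 0 of the 25 were called, where 0.401% of all genes fitted were (0.181% lower in IBA). edgeR on the recovered reads also called 0 members (0.369% of all genes, 0.207% lower in IBA), and DESeq2 called 4 of 25, which is 16% of the members beside 9.93% of all genes with an adjusted p. An unadjusted p under 0.05 was found in limma for 7 of 25 members, or 28%, close to the 23.9% of all genes. Of these 7, 5 had lower means in IBA, which is 20% of the members beside 11.1% of all genes, and 2 had higher means, 8% beside 12.7%.

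The groups of genes did not share one direction. All 3 NR4A members and 4 of 5 fitted AP-1 members had a difference below 0, with medians of -0.31 and -0.43. Of the Kruppel-like factors 2 of 3 were above 0 with a median of 0.20, and both fitted effector genes were above 0 with a median of 0.77. The medians were 0.05 for the 3 EGR members, -0.00 for 3 other transcription factors, -0.13 for the IER proteins with Btg2 and -0.12 for the 2 fitted DUSP members. The median over all genes fitted was 0.03, and 54.1% of them lay above 0. Over all 29 members, 10 lay above 0 and 19 below.

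**Figure D1:**
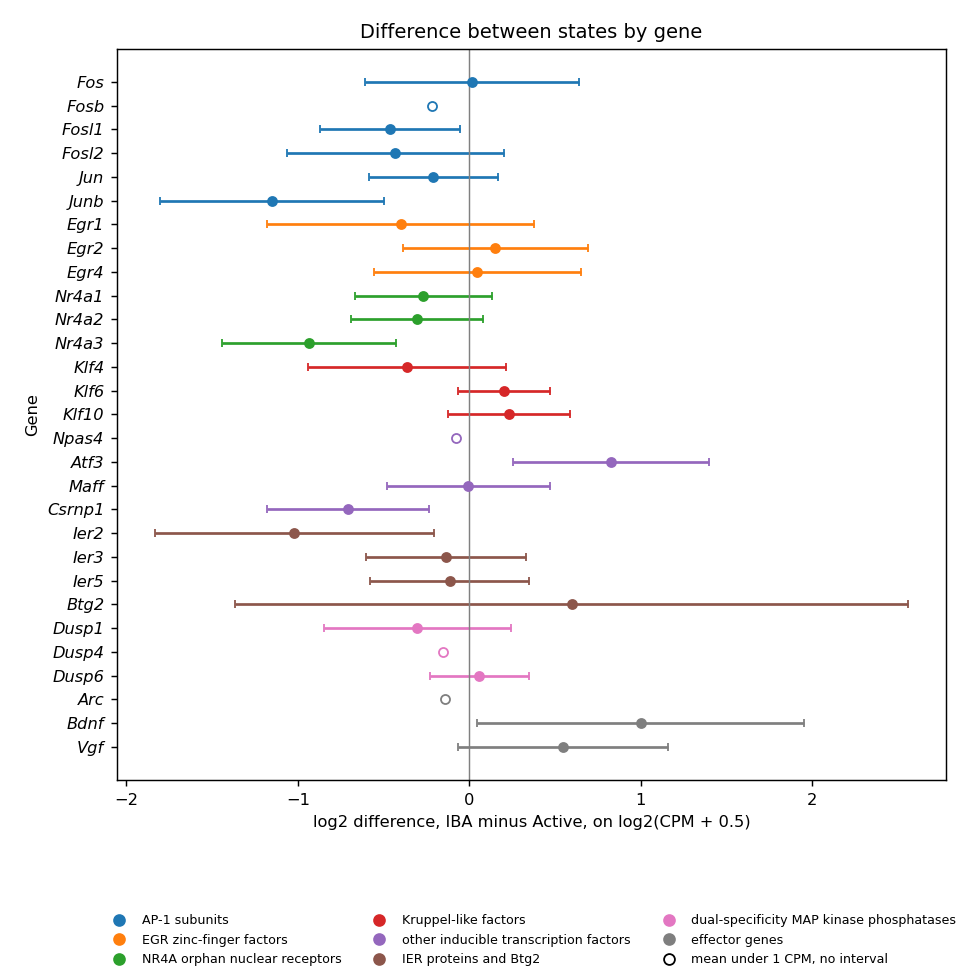
Log2 difference between IBA and Active for each of the 29 genes on the log2(CPM + 0.5) scale, coloured by role; bars are 95% intervals from limma, and open circles are the 4 genes with a mean under 1 CPM, which had no fit. Junb, Nr4a3, Ier2, Csrnp1 and Fosl1 have intervals below 0 and Atf3 and Bdnf above 0, before any adjustment for the number of genes tested; Btg2 has the widest interval, from -1.37 to 2.56.

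Among AP-1 genes, Junb had the lowest values in IBA relative to Active. Junb encodes a JUN-family partner that often acts more weakly at AP-1 sites than JUN itself. It was at 1.78, 3.86, 2.22, 4.05 and 5.04 CPM in Active replicates 1 to 5 and at 0.794, 0.679, 1.39, 1.01 and 2.41 CPM in IBA replicates 1 to 5. Active replicates 2, 4 and 5 lay above every IBA library, and IBA replicate 5 lay above Active replicates 1 and 3, so the states overlapped. The means were 3.39 ± 1.36 and 1.26 ± 0.698 CPM (SD, n = 5 each), a log2 difference of -1.15 (SE 0.30, limma adjusted p = 0.0749). Without IBA replicate 5, the highest of its state, it was -1.35 and passed (limma adjusted p = 0.0454). In that setting the calls over all genes rose from 62 to 245. With any other single library left out Junb did not pass (limma adjusted p = 0.0723 to 0.171).

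Fos itself, the most used marker of neuronal firing, was set apart in 1 Active library rather than by state. It was at 28.6, 72.1, 21.8, 22.1 and 23.5 CPM in Active replicates 1 to 5 and at 33.9, 22.7, 37.0, 28.8 and 30.1 CPM in IBA replicates 1 to 5. Active replicate 2 held the highest value of all 10, and the other 4 Active libraries were below 4 of the 5 IBA libraries. Without Active replicate 2 the log2 difference was 0.33, against 0.01 with it (95% interval -0.61 to 0.64). In other settings its sign turned, and it reached -0.26 with DESeq2 without Active replicate 5. Fosb, a relative with a long-lived truncated product, was at 0.107 to 0.995 CPM in Active libraries and 0.284 to 0.599 CPM in IBA (two-sided exact permutation test, 5 against 5 libraries, p = 0.397, where the lowest attainable p is 0.00794). The lowest Fosb value, in Active replicate 1, was 3 reads. Without that library the log2 difference of Fosb moved from -0.22 to -0.43 (two-sided exact permutation test, 4 against 5 libraries, p = 0.0238).

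The 2 FRA-type partners and Jun also had lower means in IBA. Fosl1, which encodes FRA-1, was at 1.85, 0.836, 1.36, 1.23 and 1.67 CPM in Active and at 0.794, 0.878, 0.851, 0.731 and 1.01 CPM in IBA replicates 1 to 5. Active replicate 2 fell among the IBA values, and the other 4 Active libraries were above all 5 IBA libraries. Its log2 difference was -0.46 (SE 0.19, limma adjusted p = 0.165). Fosl2, which encodes FRA-2, was at 1.30 to 3.54 CPM in Active libraries and 0.639 to 2.56 CPM in IBA. Jun, the founding AP-1 partner, was at 48.4 ± 10.7 and 42.0 ± 10.2 CPM (SD, n = 5 each), with the highest library of each state being replicate 5, at 67.1 and 58.7 CPM. Its difference was -0.21, and -0.09 without Active replicate 5.

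**Figure D2:**
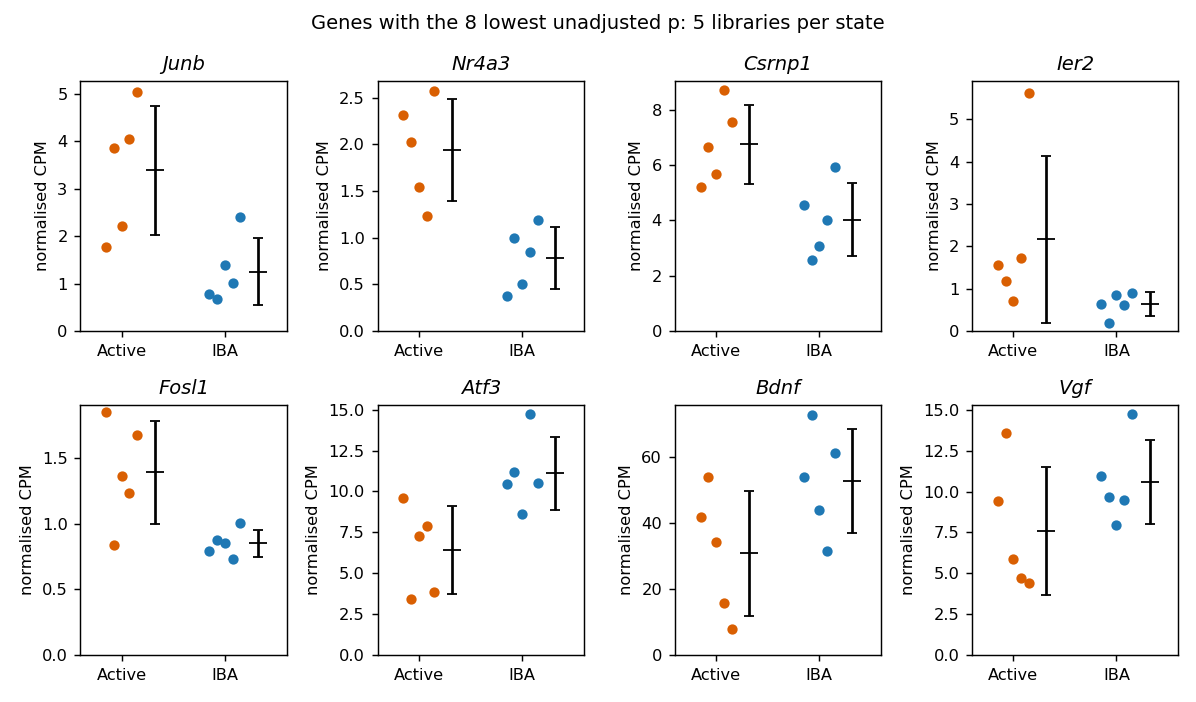
Normalised CPM of the 8 genes with the lowest unadjusted p in limma, 1 point per library in replicate order from left to right, with mean and SD beside the points. For Nr4a3 every Active library lies above every IBA library; the other 7 genes overlap between states, and for Ier2 the value of 5.63 CPM is Active replicate 5.

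Values of the EGR genes overlapped widely between the states. Egr1, a zinc-finger factor that is transcribed in neurons and glia after stimulation, was at 15.01, 26.9, 12.7, 24.7 and 19.8 CPM in Active and at 9.55, 6.63, 32.6, 15.5 and 18.3 CPM in IBA replicates 1 to 5. The highest and the lowest value of all 10 libraries were both from IBA, replicates 3 and 2. Its log2 difference was -0.40 (95% interval -1.18 to 0.38), and ranged from -0.69 without IBA replicate 3 to -0.14 without IBA replicate 2. Egr2, known also from myelinating glia, was at 1.54 to 2.35 CPM in Active libraries and 1.01 to 3.67 CPM in IBA. Egr4 was at 0.676 to 2.39 and 0.771 to 2.08 CPM. Both differences were near 0, at 0.15 and 0.05, and both changed sign when single libraries were left out.

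Nr4a3 was the only one of the 25 fitted members whose states did not overlap. Its product, NOR-1, is an orphan nuclear receptor that stimulated neurons, muscle and vessel cells induce. Nr4a3 was at 2.31, 2.03, 1.54, 1.23 and 2.57 CPM in Active and at 0.382, 0.998, 0.504, 0.853 and 1.19 CPM in IBA replicates 1 to 5. Every Active library was above every IBA library, with only 1.23 and 1.19 CPM separating the nearest. The log2 difference was -0.93 (SE 0.23, limma adjusted p = 0.0728), and it did not change sign in any of 22 alternative settings. Non-overlap was found in 1 of 25 members, or 4%, beside 6.38% of all genes fitted, of which 2.8% were lower and 3.59% higher in IBA.

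Its relatives showed smaller differences in the same direction. Nr4a1, the receptor NUR77 that lymphocytes and neurons induce, was at 10.96 ± 2.05 CPM in Active libraries and 9.11 ± 2.299 CPM in IBA (SD, n = 5 each). Nr4a2, or NURR1, a factor that dopamine neurons need, was at 4.77 ± 0.986 and 3.74 ± 0.652 CPM. Both overlapped between states, and their log2 differences were -0.27 and -0.31 (limma adjusted p = 0.396 and 0.313).

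Among other inducible factors, Csrnp1 and Atf3 pointed in opposite directions. Csrnp1, a nuclear protein that AXIN1 signalling induces, was at 5.19, 6.65, 5.67, 8.73 and 7.55 CPM in Active and at 4.56, 2.56, 3.09, 4.02 and 5.93 CPM in IBA replicates 1 to 5. IBA replicate 5 alone among the IBA libraries was above an Active library. For Csrnp1 the log2 difference was -0.71 (SE 0.22, limma adjusted p = 0.0954). Atf3, a stress-induced relative of AP-1 that marks injured neurons, was at 9.60, 3.42, 7.28, 7.89 and 3.84 CPM in Active and at 10.5, 11.2, 8.61, 14.7 and 10.5 CPM in IBA replicates 1 to 5. All IBA libraries but replicate 3 were above every Active library. The log2 difference of Atf3 was 0.83 (SE 0.26, limma adjusted p = 0.103).

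Npas4, a transcription factor that neurons induce in response to calcium entry and few other cells use, had a mean under 1 CPM. It was at 0.529 to 1.58 CPM in Active libraries and 0.0882 to 1.96 CPM in IBA, and its lowest library, IBA replicate 1, held 3 reads. Its means were 0.926 ± 0.435 and 1.01 ± 0.813 CPM, while its mean log2 difference was -0.08, so the 2 scales differ in sign (two-sided exact permutation test, 5 against 5 libraries, p = 0.873). Maff, a small MAF protein without a transactivation domain, was at 3.67 ± 0.943 and 3.66 ± 0.943 CPM (SD, n = 5 each), with a 95% interval of the log2 difference from -0.48 to 0.47.

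Kruppel-like factors are zinc-finger proteins that growth factors, flow over vessel walls and TGF-beta induce. Klf10, a TGF-beta response gene, was at 145 ± 26.5 CPM in Active libraries and 171 ± 35.8 CPM in IBA (SD, n = 5 each). Klf6, which stressed and regenerating cells induce, was at 64.0 ± 11.5 and 73.0 ± 6.35 CPM. Klf4, a factor of endothelium and of pluripotent cells, was at 2.64 to 5.32 CPM in Active libraries and 1.88 to 5.26 CPM in IBA. The differences were 0.23, 0.20 and -0.36, with limma adjusted p = 0.409, 0.335 and 0.424. Summed endothelial markers, 10 of 10 with a row, were at 513 to 998 CPM in Active libraries and 658 to 922 CPM in IBA. Most of each sum was 1 gene, Cldn5, at 372 to 914 CPM in Active libraries and 550 to 811 CPM in IBA.

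Ier2 had its state difference enlarged by 1 library. It encodes a small nuclear protein of early growth responses. Ier2 was at 1.56, 1.19, 0.717, 1.72 and 5.63 CPM in Active and at 0.647, 0.200, 0.851, 0.609 and 0.898 CPM in IBA replicates 1 to 5. All Active libraries but replicate 3 were above every IBA library, and Active replicate 5 was the highest by a wide margin. The log2 difference was -1.02 (SE 0.37, limma adjusted p = 0.133), and -0.66 without Active replicate 5 (limma adjusted p = 0.230). Ier3, which modulates survival signals, was at 4.74 ± 1.35 and 4.21 ± 1.01 CPM, and Ier5, which binds the heat shock factor, was at 2.19 ± 0.481 and 2.01 ± 0.608 CPM (SD, n = 5 each).

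Btg2 varied most of all members, and its values fell into a low and a high range in both states. It is an antiproliferative gene that p53 and neuronal activity induce. Btg2 was at 3.45, 6.96, 3.98, 2.86 and 72.9 CPM in Active and at 42.5, 4.63, 4.48, 4.83 and 43.5 CPM in IBA replicates 1 to 5. Active replicate 5 and IBA replicates 1 and 5 were at 42.5 CPM or more, the other 7 were at 6.96 CPM or less, and no library lay between. Pooled over states, its within-state SD was 1.76 on the log2 scale, and 15 of the 15445 fitted genes, or 0.0971%, had a larger one. The libraries held 65 to 2355 reads assigned to Btg2. Which part of the gene these reads cover was not examined here, so the high range is a read count and not a checked transcript level. The log2 difference was 0.60 with a 95% interval from -1.37 to 2.56, and it turned on single libraries. It was 1.40 without Active replicate 5, 0.14 without IBA replicate 1, 0.13 without IBA replicate 5 and 0.12 with edgeR or DESeq2. With DESeq2 without Active replicate 5, a setting chosen after seeing the data, it reached 2.19 (DESeq2 adjusted p = 0.105). Leaving out the highest Active library could only raise it.

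**Figure D3:**
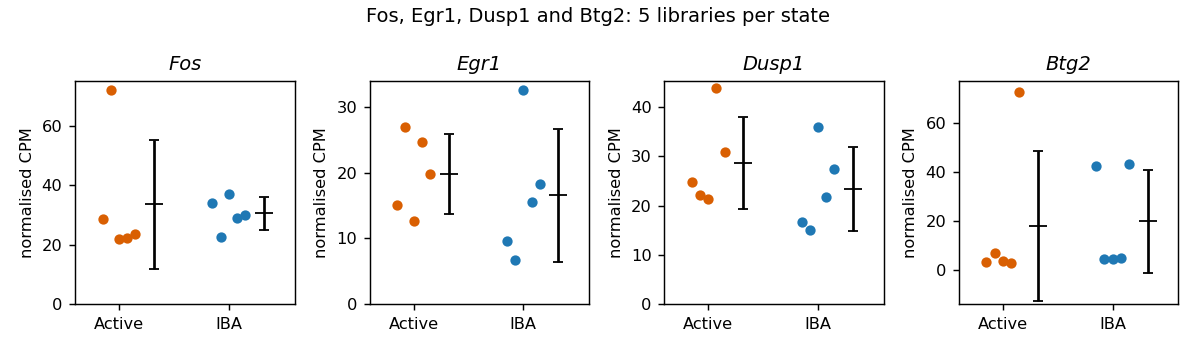
Normalised CPM of Fos, Egr1, Dusp1 and Btg2, 1 point per library in replicate order from left to right, with mean and SD beside the points (the lower SD bars of Btg2 reach below 0). Fos has 1 high Active library at 72.1 CPM, and Btg2 has 3 libraries at 42.5 to 72.9 CPM and 7 at 2.86 to 6.96 CPM.

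The DUSP phosphatases form the negative feedback on MAP kinases. Dusp1, a nuclear phosphatase that stress and glucocorticoids induce, was at 24.8, 22.2, 21.3, 43.8 and 30.9 CPM in Active and at 16.7, 15.1, 36.0, 21.8 and 27.3 CPM in IBA replicates 1 to 5. Its highest library was Active replicate 4, the library with the high choroid plexus markers. That library was the highest of the 10 also for Csrnp1, Nr4a1 and Dusp6, and the lowest for 4 of the 29 members. The part of those markers in Dusp1 and the other members was not tested. The log2 difference of Dusp1 was -0.30 (limma adjusted p = 0.484), and -0.14 without that library. Dusp6, a cytoplasmic phosphatase that is specific for ERK and follows ERK activity closely, was at 64.5 ± 9.81 and 67.3 ± 10.02 CPM (SD, n = 5 each). Its 95% interval, -0.23 to 0.35, was one of the narrowest of the list. Dusp4 was at 0.213 to 1.21 CPM in Active libraries and 0.441 to 0.977 CPM in IBA (two-sided exact permutation test, 5 against 5 libraries, p = 0.563). Leaving out Active replicate 1, its lowest library, could only move the log2 difference of Dusp4 further below 0. It moved from -0.15 to -0.38 (two-sided exact permutation test, 4 against 5 libraries, unadjusted p = 0.0476).

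Bdnf and Vgf, secreted products of active neurons, had higher means in IBA, and the same 2 Active libraries had the lowest value of each gene. Bdnf, a neurotrophin that supports synapses, was at 41.8, 54.0, 34.3, 15.8 and 7.86 CPM in Active and at 54.0, 72.5, 43.8, 31.4 and 61.2 CPM in IBA replicates 1 to 5. Vgf, a precursor of neuropeptides that neurotrophins induce, was at 9.42, 13.6, 5.84, 4.72 and 4.39 CPM in Active and at 10.96, 9.66, 7.97, 9.46 and 14.8 CPM in IBA replicates 1 to 5. Active replicates 4 and 5 were the lowest 2 of all 10 libraries for both genes, well apart from the rest for Bdnf and close to Active replicate 3 for Vgf. The log2 difference was 1.00 for Bdnf (95% interval 0.04 to 1.95, limma adjusted p = 0.194) and 0.55 for Vgf (95% interval -0.07 to 1.16, limma adjusted p = 0.259). Without both of those libraries, a setting chosen after seeing the data, the differences were 0.24 and 0.17. Leaving out the lowest 2 Active values could only lower them.

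The summed neuron markers were also lowest among Active libraries in those 2, though not marker by marker. Summed over 13 of 13 markers with a row, they were at 1677, 2003, 2253, 1467 and 1470 CPM in Active and at 2428, 2244, 1926, 1592 and 2389 CPM in IBA replicates 1 to 5. The 2 Active libraries with the least Bdnf had the lowest 2 sums, and IBA replicate 4 had the lowest Bdnf value and the lowest sum of its state. For Vgf the lowest IBA library was replicate 3 at 7.97 CPM, and replicate 4 was at 9.46 CPM. Both libraries lay below Active replicates 1 to 3 for 3 of the 13 markers, Snap25, Elavl4 and Slc17a6, while Nefl was highest among Active libraries in replicate 5 and Elavl3 in replicate 4. By list score IBA replicate 4, at -0.35, lay below Active replicates 4 and 5, at -0.29 and -0.26. None of the 13 markers was at 0 in all libraries, 9 had a difference above 0, and their median difference was 0.29. The part of neuron content in the Bdnf and Vgf values was not tested. Slc17a7, a marker of neighbouring cortical and hippocampal excitatory neurons, was at 5.55 to 13.9 CPM in Active libraries and 6.43 to 13.6 CPM in IBA. Arc, which encodes a synaptic capsid-like protein, had a lower mean in IBA, where Bdnf had a higher one. It was at 1.17, 1.03, 0.753, 0.661 and 0.433 CPM in Active and at 0.4997, 0.838, 0.441, 0.812 and 0.790 CPM in IBA replicates 1 to 5 (two-sided exact permutation test, 5 against 5 libraries, p = 0.444).

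**Figure D4:**
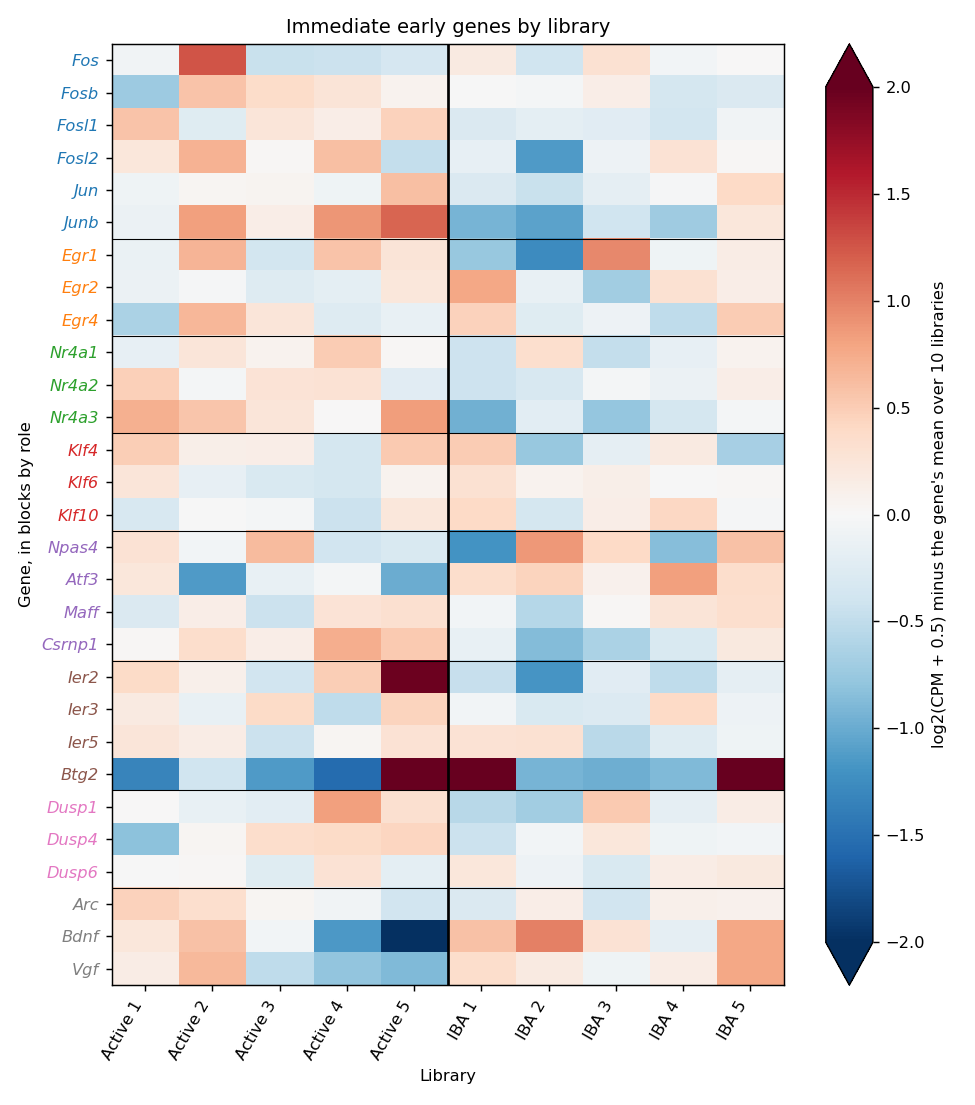
Each of the 29 genes in each library as log2(CPM + 0.5) centred on the average of that gene across libraries, in blocks by role, with red above and blue below the mean and values beyond ±2 drawn in the end colours. Active replicate 5 holds the reddest cells of Ier2 and Btg2 and the bluest of Bdnf, and IBA replicate 2 is blue for Junb, Egr1 and Ier2.

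The highest library differed from gene to gene. Active replicate 5 was the highest of all 10 libraries for 8 of the 29 members and the lowest for 3. IBA replicate 2 was the highest for 3 and the lowest for 9, among them Egr1, Fosl2, Ier2 and Junb. Over all genes fitted, Active replicate 5 was the highest library for 18% and the lowest for 19.5%, and IBA replicate 2 for 12.8% and 9%. The library with the most Fos, Active replicate 2, was also the highest of the 10 for Fosb, Fosl2 and Egr4, and it was the lowest for Atf3.

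The 25 fitted members varied more than the typical gene in both states. Their median SD over the 5 libraries of a state was 0.36 in Active and 0.36 in IBA on the log2 scale, against 0.25 and 0.23 over all genes fitted. A larger SD than the median of all genes was found for 23 of 25 members in Active and 21 of 25 in IBA. The comparison was not matched on level. Of all 29 members, 15 had a larger SD in Active, where 55.5% of all genes fitted did.

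**Figure D5:**
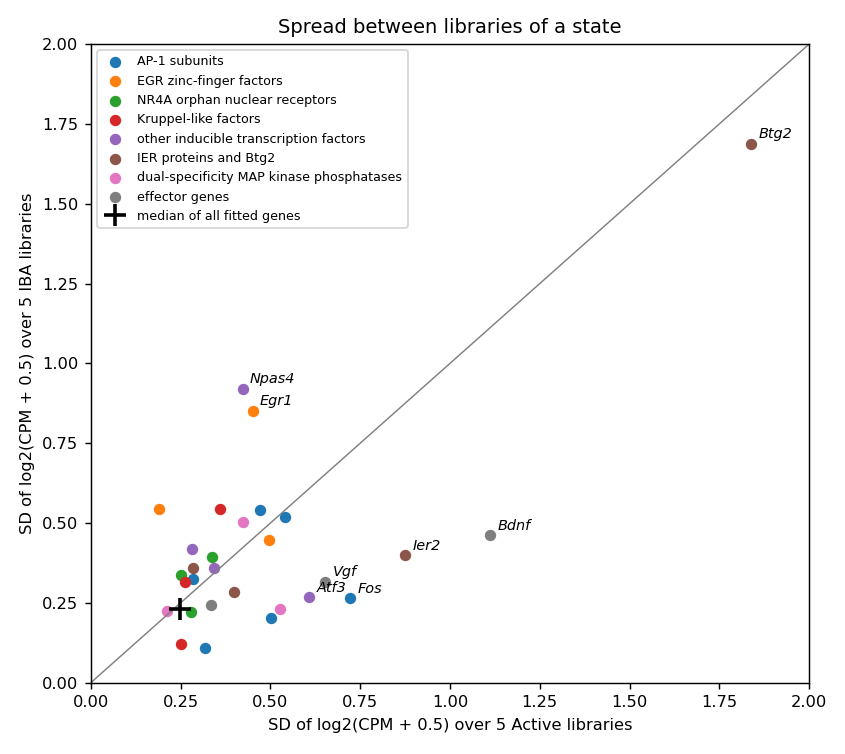
SD of log2(CPM + 0.5) over the 5 Active libraries against that over the 5 IBA libraries for each of the 29 genes, coloured by role, with the line of equality and a cross at the median of all fitted genes. Btg2 lies far from the rest in both states, Bdnf, Ier2 and Fos lie on the Active side, and Npas4 and Egr1 on the IBA side.

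DESeq2 on the recovered reads called Junb, Nr4a3, Csrnp1 and Ier2, all lower in IBA, with log2 differences of -1.46, -1.34, -0.78 and -1.79 (DESeq2 adjusted p = 0.0119, 0.0126, 0.0362 and 0.0284). In that test 6.06% of all genes with an adjusted p were called lower in IBA. Without Active replicate 5, DESeq2 gave an adjusted p of 0.0689, 0.0662 and 0.110 for Junb, Nr4a3 and Csrnp1 and none for Ier2, and it called 0 members. Pericyte and smooth muscle markers, cells that also induce these genes, had a median difference of -0.21 with 7 of 9 below 0, and list scores of 0.03 to 0.50 in Active and -0.39 to 0.17 in IBA libraries. Of these 9 markers none was at 0 in all libraries. Summed, they were at 193 to 287 CPM in Active libraries and 161 to 260 CPM in IBA, and their part in the 4 genes was not tested. The greatest differences among them were -1.46 for Myh11 and -0.93 for Notch3 (limma adjusted p = 0.0756 and 0.0819). Lower medians were not particular to these cells. Choroid plexus markers had a median of -0.25 with 7 of 8 below 0. Ependyma and fibroblast markers each had a median of -0.18 with 4 of 6 below 0. The medians were -0.08 for forebrain neurons, -0.03 for astrocytes and -0.01 for endothelium. Those of neurons, microglia and oligodendrocytes were above 0, at 0.29, 0.26 and 0.09.

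Of the markers of other cell types, 1 passed the test. P2ry12, a purine receptor of microglia, was at 18.6 to 23.6 CPM in Active and at 32.7 to 51.9 CPM in IBA, a log2 difference of 0.89 (limma adjusted p = 0.0347). The 10 microglia and macrophage markers summed to 198 to 260 CPM in Active and to 268 to 307 CPM in IBA, without overlap, and 5 of 8 fitted lay above 0. Foxj1, the master factor of motile cilia, was at 19.7 to 51.0 CPM in Active and at 1.26 to 16.8 CPM in IBA, a difference of -2.06 (limma adjusted p = 0.0761), while the 6 ependyma markers with a row summed to 213 to 299.6 and 194 to 294 CPM. Aldh1l1, a folate enzyme of astrocytes, differed by -1.47 (limma adjusted p = 0.0819), and 3 of the 6 fitted astrocyte markers lay below 0. In the other lists the greatest differences were 0.61 for Gad1 of neurons, -0.57 for Col1a1 of fibroblasts, -0.49 for Plvap of endothelium, 0.37 for Cnp of oligodendrocytes and -1.17 for Aqp1 of choroid plexus (limma adjusted p = 0.0644, 0.178, 0.399, 0.408 and 0.412). Further markers were Slc17a6 at 0.50, Col3a1 at -0.50, Cdh5 at -0.39, Kl at -0.74, Aqp4 of astrocytes at 0.44 and Dynlrb2 of ependyma at 0.37, with Prox1 and Slc17a7 of forebrain neurons at 0.12 and -0.13 (limma adjusted p = 0.234 to 0.793). No marker of these lists was at 0 in all libraries, and their part in the immediate early gene values was not tested.

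The authors' deposited table gave no member an FDR under 0.05. Its lowest value for a member was 0.204, for Ier2, and 10 of the 29 members were higher in IBA in the authors' deposited table. Its log2 fold changes, turned to IBA minus Active, were -1.75 for Ier2, -1.43 for Junb and -1.31 for Nr4a3 in the authors' deposited table. These are larger in size than the limma differences of -1.02, -1.15 and -0.93. With 0.1 CPM added instead of 0.5, limma gave -1.39, -1.40 and -1.25, still smaller in size than the deposited values. edgeR on the recovered reads gave -1.78, -1.46 and -1.34, close to the deposited values and slightly larger in size. limma compares means of log values, where edgeR fits counts. The part of this in the gap was not tested.

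No regulator upstream of these genes passed the test. Of 36 fitted kinases and CREB, SRF and MEF2 regulators, 0 were called in limma, 15 were above 0 and 21 below, with 9 at an unadjusted p under 0.05 and a median difference of -0.02. Creb1, the cAMP response factor, was at 53.5 ± 8.57 and 53.2 ± 6.55 CPM, and Srf, the serum response factor, at 3.93 ± 1.20 and 3.73 ± 0.456 CPM (SD, n = 5 each). The 2 regulators with the greatest differences were Crtc1, a coactivator of CREB, and Mapk7, the kinase ERK5, at -0.60 and -0.58 (limma adjusted p = 0.118 and 0.210).

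Other activity-induced genes gave 0 calls among 28 fitted, with 13 above 0, 15 below, 6 at an unadjusted p under 0.05 and a median of -0.02. Homer1, a postsynaptic scaffold with an inducible short form, was at 2.77 ± 0.742 and 2.33 ± 0.308 CPM (SD, n = 5 each). Nptx2, a pentraxin that gathers glutamate receptors, was at 25.7, 7.72, 9.0002, 10.05 and 23.3 CPM in Active replicates 1 to 5 and at 6.87 to 9.05 CPM in IBA. Active replicates 1 and 5 were well above the other 8 libraries, and the log2 difference was -0.73 (limma adjusted p = 0.176). Per1, a clock gene with CREB sites, was at 85.7, 46.6, 43.7, 101 and 40.7 CPM in Active libraries and 31.7 to 55.4 CPM in IBA, a difference of -0.49. Sst, the somatostatin gene, and Trib1, a pseudokinase gene, differed by 0.95 and -1.06 (limma adjusted p = 0.161 and 0.338), and Trib1 was at 25.3 CPM in Active replicate 4 against 0.568 to 2.71 CPM elsewhere.

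Relatives of the members outside the list also gave 0 calls. Of 8 fitted AP-1 partners, 4 were above 0, and Mafg, a small MAF protein, and Atf4, the effector of the integrated stress response, differed by -0.56 and 0.43 (limma adjusted p = 0.0728 and 0.137). Of 6 other DUSP genes, 4 were below 0 and the median was -0.20, with Dusp16 at -0.42 and Dusp14 at -0.28 among those that averaged 2 CPM or more (limma adjusted p = 0.131 and 0.166). Dusp9, which averaged 1.04 CPM and is named after its values were seen, had the greatest difference of that list, -1.085 (limma adjusted p = 0.0772). Likewise Jdp2 and Batf3, at 1.19 and 1.02 CPM, had the greatest differences of the AP-1 partners, -0.79 and 0.77 (limma adjusted p = 0.103 and 0.114). Of 9 other Kruppel-like factors, 4 were above 0 and the median was -0.04, with Klf13 at -0.40 and Klf8 at 0.34 (limma adjusted p = 0.421 and 0.314). An unadjusted p under 0.05, which 23.9% of all genes fitted had, was found for 5 of 8 AP-1 partners, 3 higher and 2 lower, for 3 of 6 DUSP genes, all lower, and for 0 of 9 Kruppel-like factors.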

How the data were processed

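RNA of 10 libraries was compared, 5 Active and 5 IBA, with groups and replicate numbers from the sample titles. The submitters' processing notes name STAR 2.7.7a and Trimmomatic 0.39, with edgeR 3.38.4 under R 4.2.1, and Subread 2.0.1 for featureCounts. The build, annotation and strand setting are not given in the sources used here. Values of overlapping or antisense genes and of near-identical copies are therefore uncertain. As the file headers show, the authors deposited normalised CPM per library, a signal scaled so that column sums differ. They also deposited a log2 fold change coded Active minus IBA with an average log2 CPM, an F statistic (a score), and a p-value with its FDR.

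In every library 100% of CPM values were whole multiples of 1 read within 0.01 of a read. A count of 0 allows up to 3 reads, 0.0882 to 0.132 CPM, for counting error only. limma 3.58.1 in R 4.3.3 was fitted with an intensity trend to log2(CPM + 0.5). Members with a mean of 0.5 to 1 CPM were tested by exact permutation of the 252 assignments of libraries to states. DESeq2 1.42.0 and edgeR 4.0.16 ran on the recovered reads as alternatives. The limma script was tested on simulated data. A list score averages the fitted members after each gene was centred across the libraries. Nothing states that replicates came from separate animals beyond the series' design text, which calls them biological, so p-values measure the spread between these samples.

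Members and lists were chosen with earlier results of these data known. Every member is named; of each other list, the text names genes called in limma or else the 2 with the greatest absolute difference at a mean of at least 2 CPM, and Homer1, Nptx2, Per1, Srf and Creb1. One gene that this rule picks is not reported here.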

Additional observations from a re-analysis of the deposited data

Results flagged for a closer look

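For 4 genes 1 library of a state lay far from the other 4, by the gap to its nearest neighbour relative to the whole range. Fos was at 72.1 CPM in Active replicate 2, with the next Active library at 28.6 CPM. Jun was at 67.1 CPM in Active replicate 5, with the next at 46.0 CPM. Ier2 was at 5.63 CPM in Active replicate 5, with the next at 1.72 CPM. Btg2 was at 72.9 CPM in Active replicate 5, with the next at 6.96 CPM. All 4 were the highest of their state, and 3 of the 4 were in Active replicate 5. Chance flags about 1 in 20 groups, and 58 groups of 5 libraries were examined.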

How the results depend on the processing

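Of 29 members, 21 kept their direction in every setting tried, which was 22 settings for each fitted member. Fos turned to -0.0426 with equal totals, -0.00057 with median-of-ratios factors, -0.17 with array weights, -0.16 with edgeR and -0.16 with DESeq2, and ranged from -0.10 to 0.33 with single libraries left out. Maff turned to 0.0445 with array weights and ranged from -0.11 to 0.14, Egr4 from -0.10 to 0.22, Egr2 from -0.0226 to 0.34, Ier5 from -0.24 to 0.0041 and Npas4 from -0.30 to 0.21 with single libraries left out. Without Active replicates 4 and 5 together, chosen after seeing the data, Fos was at -0.24, Egr4 at -0.0714, Maff at 0.19 and Dusp4 at 0.0676. With DESeq2 without Active replicate 5, also chosen then, Fos was at -0.26, Egr4 at -0.0349, Maff at 0.06 and Dusp6 at -0.0163. The cause of these changes was not tested.

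Over all genes fitted, limma called 62 genes, 6 with no filter, 121 with array weights and 4 to 245 with single libraries left out. Without Active replicates 4 and 5 it called 0, and 3 of 25 members, Junb, Nr4a3 and Atf3, had an unadjusted p under 0.05. DESeq2 called 1527 genes and 4 members, and 683 genes and 0 members without Active replicate 5. With single libraries left out, limma called 0 to 1 members and 5 to 8 had an unadjusted p under 0.05. The share of all genes at that p was not computed for these settings or without Active replicates 4 and 5. In the main fit that share was 23.9%. These member counts can therefore not be read against all genes. Without Active replicate 1, the lowest Active library of both genes, Fosb and Dusp4 were at -0.43 and -0.38. The two-sided exact permutation test there gave an unadjusted p of 0.0238 and 0.0476. The direction of both shifts was fixed by which library was left out. The effector median, 0.77, was 0.21 without Active replicates 4 and 5 and reached 1.02 without Active replicate 2. Medians of the NR4A and AP-1 groups ranged from -0.48 to -0.24 and from -0.67 to -0.20, and those of the EGR, DUSP and other transcription factor groups passed through 0. With the replicate block limma called 231 genes and 0 members. Nothing in the labels says that same-numbered libraries share a source. Same-numbered pairs correlated at -0.17 to 0.20, 3 of 5 above 0.1, and 3 of 5 Active libraries correlated best with their own number, a hint of pairing from the data and not the design. The 4 members under 1 CPM were not run in edgeR, DESeq2, with array weights or with the block. With 5 libraries per state, intervals for genes such as Btg2, Bdnf and Egr1 leave sizeable differences possible.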
